A study of Sus scrofa with 6 samples.

Results

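Intronic lncRNAs are noncoding transcripts that lie within the introns of an annotated gene, their host, on its own strand or on the opposite one. Of the 10813 lncRNAs listed in fetal ovary, 494 from 431 loci were examined here. They are those that the study's annotation classed as intronic, among 1998 lncRNAs whose annotation could be read, with 74 of the 568 intronic ones left out because the readable part of the study's tissue-specific list names them. That list was read only in part, so some tissue-specific lncRNAs remain among the 494. The annotation named 430 host genes that the expression files list, and the lncRNAs formed 539 pairs with them. No host was listed for 6 lncRNAs, and 45 had more than 1 host. The rule of choice used no expression value of these fetal ovary samples. The tissue-specific list itself was defined in the study by expression across postnatal tissues, ovary among them.

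Transcription inside an intron can accompany a host passively, as part of its precursor RNA, or arise from a promoter of its own. When the lncRNA lies on the opposite strand it cannot be a piece of the host transcript, and strand-specific libraries are able to count it apart. In the fetal ovary, germ cells on the way to meiosis lie among supporting and stromal cells, so a transcript measured in the whole organ can come from any of them.

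The samples were ovaries of pig fetuses at 49 days post coitus, 3 from Meishan and 3 from Large White, with no treatment in either breed. Meishan is a prolific Chinese breed and Large White a European commercial breed. Total RNA was depleted of ribosomal RNA and sequenced in strand-specific paired-end libraries, and expression was given as RPKM, which scales the reads of a feature by its length and by the mapped reads of the library. The labels do not say whether the samples came from separate animals or litters, so the p-values below measure only the spread between these samples.

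Recovered depth was 35185781 to 39033204 mapped reads per sample, of which 36.6% to 46.3% fell on listed features, and for a transcript of 1 kb, 3 reads came to 0.0769 to 0.0853 RPKM. This floor covers counting error only. The somatic gonad markers WT1 (9.24 to 12.3 RPKM) and GATA4 were present in all samples. Of the 8 matched genes of their list, that of supporting cells, 6 passed the filter on low values described below. IRX3 and LGR5 did not pass. The germ cell marker DDX4 lay between 0 and 1.58 RPKM, and 6 of the 13 germ cell genes that could be matched passed that filter. KIT had the highest mean of them. It was at 1.69, 1.99 and 7.77 RPKM in Meishan and 16.6, 14.8 and 16.9 RPKM in Large White. The breeds did not overlap, but the difference did not pass the test described below (limma adjusted p = 0.0866). The other tested genes of that list overlapped between the breeds. Of 8 matched genes of mesonephros and kidney tubule, tissue that borders the fetal gonad, PAX8 passed, and UMOD was listed at 0 in every sample. Meishan replicate 3 stood apart: its correlation with the other samples was 0.865 to 0.888 (Pearson r of log2(RPKM + 1)), against 0.932 to 0.975 among the others. Of the stroma and steroidogenic cell list, its INHA, an inhibin subunit, was at 492 RPKM against 2.05 to 4.93 RPKM elsewhere. Its CYP17A1 was at 59.2 RPKM against 1.28 to 25.7 RPKM, and NR2F2 (14.2 RPKM) and TCF21 (8.87 RPKM) were also highest there. Its CYP11A1, which starts steroid synthesis, was at 506 RPKM against 1299 to 1882 RPKM, and PDGFRB (6.83 RPKM) was also lowest there. The sum of the list was 1599 RPKM against 1831 to 2711 RPKM. CYP11A1 is the largest term of that sum in the other samples, so the sum does not speak for the list as a whole. Of the supporting cell list, FST in Meishan replicate 3 was at 37.2 RPKM against 6.77 to 9.56 RPKM elsewhere. AMHR2 was at 3.22 RPKM against 0.239 to 0.89 RPKM, and EMX2, LHX9 and WT1 were also highest there. GATA4, IRX3 and LGR5 were not. The sum of the supporting cell list was 86.6 RPKM against 39.7 to 51.8 RPKM. INHBA, of the list of WNT, BMP and TGF-beta signaling, was at 221 RPKM there against at most 4.67 RPKM elsewhere.

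By the annotation, 335 of the intronic lncRNAs lay on the strand opposite to their host, 132 lay on the same strand, and 21 had hosts on both strands. Their median length was 462 nt (range 201 to 4026) with a median of 2 exons, and the genomic span from first to last exon had a median of 17580 bases. The span was 66740 bases for same-strand and 13330 bases for opposite-strand lncRNAs. The annotation also gives the code by which the assembled transcripts were compared with the reference. In that scheme, i marks a transcript wholly inside an intron, x an exonic overlap on the opposite strand, o another exonic overlap, and u no overlap. None of the 494 carried i. The codes were x for 333, o for 141 and u for 20, so the placement without any exonic overlap rests on the study's class and was not checked against a genome here. The lncRNAs are therefore called intronic in the sense of that class.

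Alignment to other mammals was taken from the annotation. An alignment to both the human and the mouse genome was recorded for 247 of 494 lncRNAs (50.0%), and none to either genome for 153 (31.0%). Without an alignment were 53.8% of the same-strand and 19.1% of the opposite-strand lncRNAs. These are counts from the annotation and carry no test. A CpG island was recorded for 77.

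Most intronic lncRNAs were scarce in fetal ovary. In Meishan replicates 1 to 3, 222, 218 and 262 of 494 had an RPKM above 0, and in Large White replicates 1 to 3 the numbers were 241, 173 and 223. The breeds overlapped. Meishan had a mean of 234 ± 24.3 (SD, n = 3), and the mean of Large White was 212 ± 35.2 (SD, n = 3). Their summed level was 290.2, 294 and 308 RPKM in Meishan and 261, 226 and 289.6 RPKM in Large White, so that the lowest Meishan sample lay just above the highest Large White sample. Above 0 in all 6 samples were 109 lncRNAs (22.1%), and 161 (32.6%) were listed at 0 in all 6, against 42.9% of all lncRNAs. Here and below, all lncRNAs include those on the tissue-specific list, which were left out of the 494 where the list could be read.

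Part of the zeros coincided with shared sequence. All exonic bases of 26 intronic lncRNAs were also exonic in other listed lncRNAs on the same strand, and all 26 were listed at 0 in every sample. Where some bases were shared, 50 of 104 were at 0, and where none were shared, 85 of 364 (23.4%). Sharing was looked for only among the 1998 lncRNAs whose annotation could be read, so bases shared with the rest are not known. A read that fits several features can be dropped in counting, so a 0 in such a locus does not show absence of the transcript. The part of this in the zeros was not tested.

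The filter used for all tests asked for 0.5 RPKM or more in 3 or more samples. It was met by 140 intronic lncRNAs (28.3%), against 39.5% of the 397 antisense lncRNAs (those overlapping exons on the opposite strand), 18.7% of the 891 lncRNAs near gene ends, and 14.0% of all lncRNAs. The intronic, antisense and gene-end sets leave out lncRNAs of the readable tissue-specific list, while all lncRNAs keep them, so that last share is from an unlike set. Of the 140 intronic lncRNAs that passed, 100 had only opposite-strand hosts and 34 only same-strand hosts. Their median mean level was 1.04 RPKM, at a median of 13 to 20 reads per sample, and 8 had a mean of at least 5 RPKM.

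TCONS_00434952 was the most abundant intronic lncRNA. This 945-nt transcript with 5 exons lies at chr2:35609130-35618917 (Sscrofa10.2, minus strand), opposite to LGR4, a receptor for R-spondins that amplifies WNT signaling. Its RPKM was 30.5, 25.6 and 17.1 in Meishan against 20.3, 22.4 and 22.0 in Large White. LGR4 was at 60.4, 45.4 and 33.6 RPKM in Meishan and 35.2, 38.9 and 32.0 RPKM in Large White. Both ranges overlapped between the breeds, and in Meishan replicate 1 was the highest and replicate 3 the lowest sample for lncRNA and host alike. The log2 fold change, Meishan minus Large White, was 0.14 ± 0.22 (SE) for the lncRNA and 0.35 ± 0.24 (SE) for LGR4, with limma adjusted p = 0.801 and 0.513.

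Among the 7 that follow in mean level, 5 lay on the strand of their host. TCONS_00369604, a transcript of 263 nt within CTSA, the gene of a protective lysosomal protease, was at 4.99, 13.9 and 6.53 RPKM in Meishan and 4.11, 5.58 and 7.14 RPKM in Large White, while CTSA lay between 28.9 and 52.5 RPKM. Replicate 2 was the highest Meishan sample for both. TCONS_00320584 was at 1.63 to 9.32 RPKM over the 6 samples, beside 25.2 to 82.0 RPKM for its host ENSSSCG00000015902, which has no symbol here. TCONS_00754932, within the centriole gene CEP295, was at 5.98, 1.70 and 5.66 RPKM in Meishan and 6.35, 6.10 and 4.56 RPKM in Large White. CEP295 itself was at 5.22 to 6.16 RPKM in 5 samples and at 13.5 RPKM in Meishan replicate 3, where the lncRNA lay within its range in the other samples. TCONS_00619270 was at 6.28, 10.3 and 5.57 RPKM in Meishan and 4.55, 4.68 and 1.38 RPKM in Large White, all Meishan samples above all Large White samples, with a log2 fold change of 0.95 ± 0.37 (SE) that did not pass (limma adjusted p = 0.271). Its host ENSSSCG00000027056 was at 3.21 to 4.71 RPKM.

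TCONS_00475877 lay opposite to AGBL5, which encodes an enzyme that removes glutamate from tubulin. The lncRNA was at 6.80, 3.03 and 3.33 RPKM in Meishan and 8.45, 8.68 and 6.78 RPKM in Large White, so the breeds overlapped only through Meishan replicate 1 and Large White replicate 3. AGBL5 was at 10.7, 6.97 and 6.74 RPKM in Meishan and 9.28, 9.69 and 8.56 RPKM in Large White. The lncRNA's log2 fold change of -0.80 ± 0.27 (SE) did not pass (limma adjusted p = 0.226). TCONS_00172495, a 2-exon lncRNA spanning 293082 bases opposite to ADAMTS9, a secreted metalloprotease, was at 3.53 to 8.27 RPKM over the 6 samples beside 6.65 to 9.75 RPKM for ADAMTS9.

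**Figure D1:**
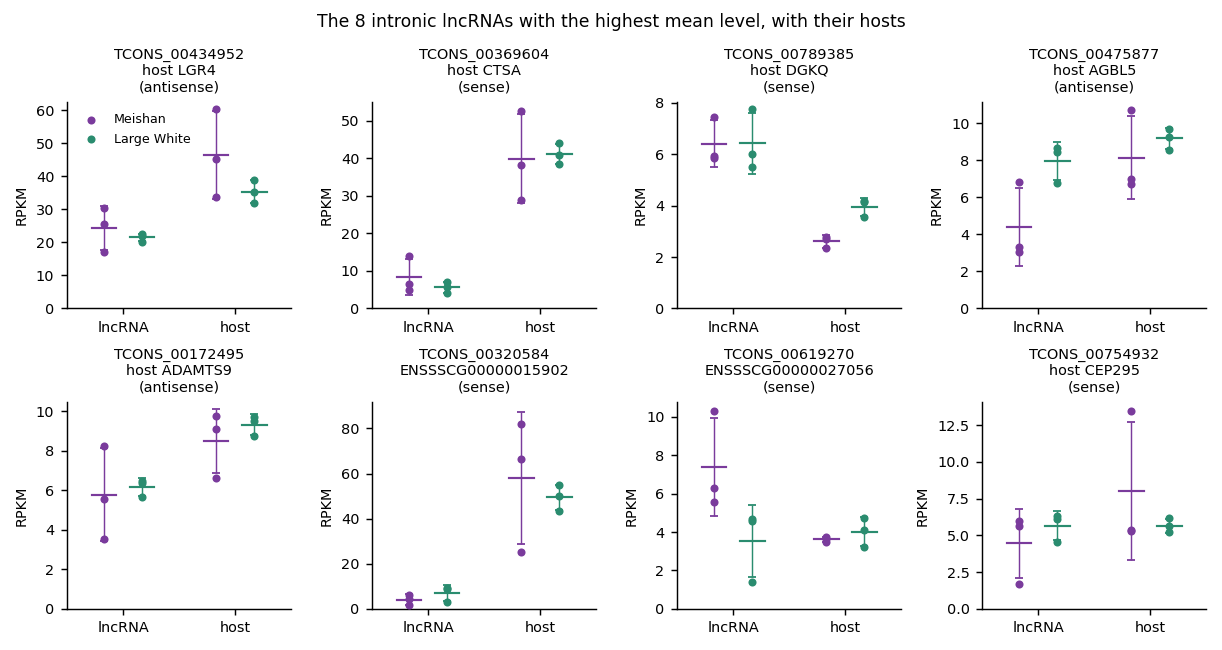
RPKM (linear axis from 0) of the 8 intronic lncRNAs with the highest mean level and of their hosts in 3 Meishan (purple) and 3 Large White (green) samples. Points are samples, bars the breed mean and its SD, and each panel names the host and the strand relation. The host lies above the lncRNA in most panels, with TCONS_00789385 above DGKQ in all samples and TCONS_00619270 above its host in 5 of 6.

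Host genes were more abundant than the lncRNAs they hold. Both partners passed the filter in 138 pairs, and the host was above the lncRNA in all 6 samples in 115 of them, the lncRNA above the host in 2, with the order changing between samples in 21. The median of the log2 ratio of lncRNA to host, on the scale log2(RPKM + 1), was -2.05 (quartiles -2.93 and -1.32). It was -2.28 over 37 same-strand and -1.96 over 101 opposite-strand pairs. For antisense lncRNAs and the genes they overlap, the same median was -0.13 (149 pairs), and for lncRNAs near gene ends -1.45 (150 pairs). These medians are per length, describe only pairs that passed the filter, and have no test.

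**Figure D2:**
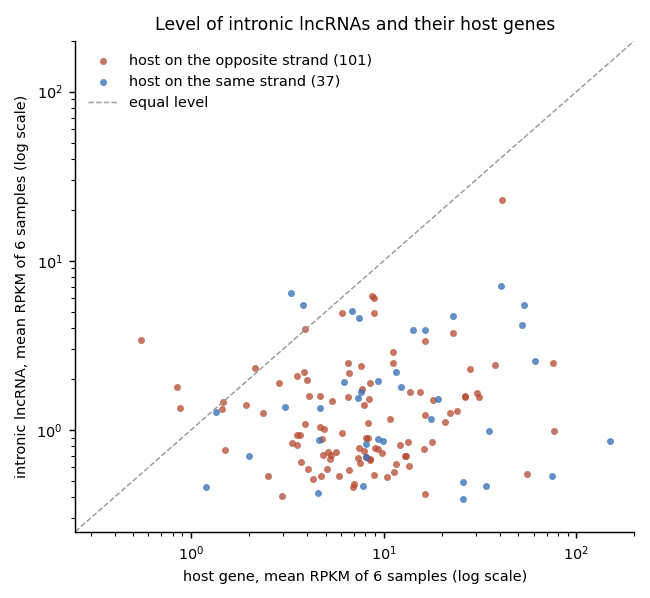
Mean RPKM over 6 samples of the intronic lncRNA (vertical, log scale) against that of its host (horizontal, log scale) for the 138 pairs in which both passed the filter. Red points have hosts on the opposite strand (101) and blue points on the same strand (37). Nearly all points lie under the dashed line of equal level.

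The lncRNA exceeded its host in all 6 samples in a pair of cases. TCONS_00279167, on chr14:116329723-116369132 (minus strand), was at 2.86, 2.06 and 7.32 RPKM in Meishan and 2.93, 2.01 and 3.29 RPKM in Large White. Its opposite-strand host ENSSSCG00000026798 was at 0.655, 0.601 and 0.872 RPKM in Meishan and 0.439, 0.206 and 0.504 RPKM in Large White. Meishan replicate 3 was the highest sample for both. TCONS_00789385, on an unplaced scaffold and on the strand of DGKQ, a diacylglycerol kinase, was at 7.46, 5.92 and 5.84 RPKM in Meishan and 5.50, 5.99 and 7.76 RPKM in Large White. DGKQ was at 2.79, 2.71 and 2.34 RPKM in Meishan and 4.17, 4.14 and 3.54 RPKM in Large White. All Meishan samples of DGKQ lay below all Large White samples, while the lncRNA overlapped fully, but neither the host change (log2 fold change -0.45 ± 0.16 SE, limma adjusted p = 0.239) nor the change in the ratio (0.46 ± 0.21 SE, limma adjusted p = 0.490) passed.

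The level of the hosts was set beside the detection of their lncRNAs. Of the 430 hosts, 303 (70.5%) passed the filter, against 62.0% of all protein-coding genes. Among hosts paired with an lncRNA that passed, 132 of 142 passed (93.0%), with a median of 7.59 RPKM. Where the lncRNA was above 0 but did not pass, 122 of 183 hosts passed (66.7%, median 1.56 RPKM), and where it was listed at 0, 70 of 140 (50.0%, median 0.518 RPKM). A host with several lncRNAs counts in each group it belongs to. The part of the host's level in the detection of its lncRNA was not tested.

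The breeds were compared to ask which intronic lncRNAs and hosts differ at this stage. A feature was called when its fold change was at least 2 and its limma adjusted p, over all 14902 features tested, under 0.05. Of the 140 intronic lncRNAs, 1 was called, against a background of 0.925% of all lncRNAs and 0.758% of all features. It was lower in Meishan, as were 0.793% of all lncRNAs, while 0 intronic lncRNAs were called higher (background 0.132%). At an unadjusted p under 0.05 there were 25 (17.9%, background 14.7% of lncRNAs). Of the 140, 16 were higher in Meishan at that p (background 7.73%) and 9 lower (background 6.94%). In 23 (16.4%, background 18.0% of lncRNAs) the samples of the breeds did not overlap. The median log2 fold change was 0.15 over the intronic lncRNAs and 0.09 over all lncRNAs. These shares lie near the background, except that 16 of 140 is a larger share than 7.73%. That difference was not tested. The filter was met through 1 breed alone by 6 of the 140 lncRNAs, 3 with no Meishan and 3 with no Large White sample at 0.5 RPKM. Such a feature had to differ, and of these 6, 5 are among the 25, 6 among the 23, and 0 called. In a bulk ovary, fewer cells of a type and less RNA per cell cannot be told apart, here and in each comparison that follows. Without Meishan replicate 3, 4 of 106 lncRNAs were called, TCONS_00552319, TCONS_00294086, TCONS_00428714 and TCONS_00455803. In that fit TCONS_00294086, listed at 0 in Meishan replicates 1 and 2, met the filter through Large White alone, so it had to differ. Without Meishan replicate 2 or any 1 Large White sample, 0 were called. The share of all features called with a sample left out is not given here, so these counts have no background.

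The called lncRNA was TCONS_00552319. This 1296-nt transcript with 2 exons lies at chr5:24090393-24103172 (plus strand) on the strand of both its hosts, ENSSSCG00000000414 and ENSSSCG00000000419, for which no symbol was given here, and its code was o. Its RPKM was 2.13, 1.12 and 0.830 in Meishan against 5.07, 6.82 and 7.38 in Large White, from 101, 54 and 42 reads and 231, 331 and 357 reads. Every Meishan sample was lower than every Large White sample. The mean was 1.36 ± 0.683 RPKM (SD, n = 3) against 6.42 ± 1.21 RPKM (SD, n = 3), a log2 fold change of -1.68 ± 0.25 (SE; limma adjusted p = 0.0349).

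Both of its hosts were lower in Meishan by nearly the same amount. ENSSSCG00000000419 was at 7.61, 6.40 and 4.09 RPKM in Meishan and 20.9, 22.6 and 23.8 RPKM in Large White, which gave a log2 fold change of -1.77 ± 0.22 (SE; limma adjusted p = 0.0229). ENSSSCG00000000414 was at 10.9, 6.38 and 4.42 RPKM in Meishan and 20.4, 30.2 and 25.8 RPKM in Large White, which gave a log2 fold change of -1.75 ± 0.30 (SE) that missed the threshold (limma adjusted p = 0.0518). The breeds did not overlap for either. The log2 ratio of the lncRNA to ENSSSCG00000000419 lay between -1.85 and -1.46 in all 6 samples and changed by 0.09 ± 0.22 (SE; limma adjusted p = 0.901). That to ENSSSCG00000000414 changed by 0.07 ± 0.23 (SE; limma adjusted p = 0.929). The lncRNA and both hosts share the locus, the strand and the libraries, so these are not separate observations of the breed difference.

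**Figure D3:**
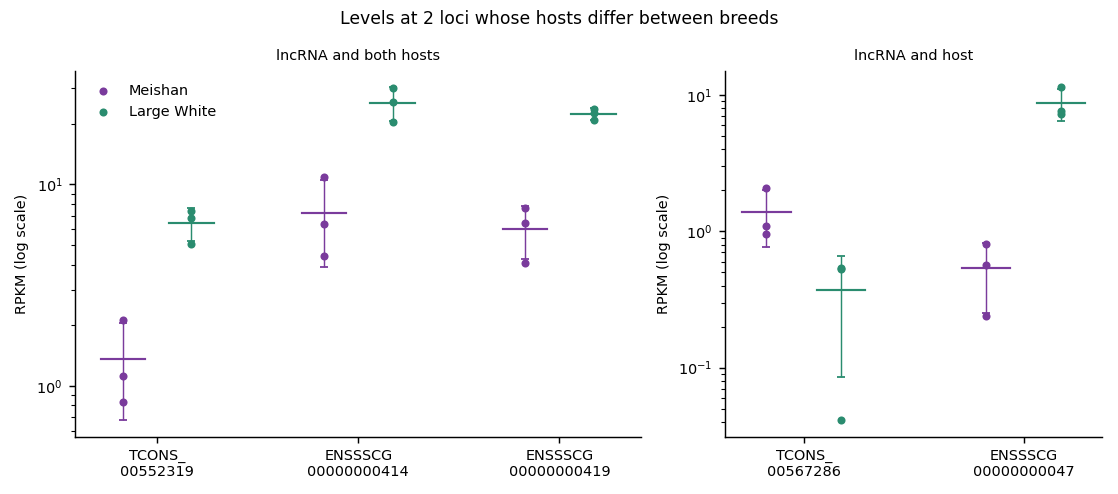
RPKM (log scale) in 3 Meishan (purple) and 3 Large White (green) samples at 2 loci. Points are samples, bars the breed mean and its SD. At left TCONS_00552319 and both hosts are lower in every Meishan sample, and at right the host ENSSSCG00000000047 is lower in Meishan while TCONS_00567286 is higher.

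Among the 303 tested hosts, 4 were called (background 0.739% of protein-coding genes), all 4 lower in Meishan (background 0.515%) and 0 higher (background 0.224%). As a share, 4 of 303 is above both 0.739% and 0.515%, but this rests on 4 genes and was not tested. At an unadjusted p under 0.05 there were 41 (13.5%, background 16.0%), with 16 higher (background 6.12%) and 25 lower (background 9.9%), and in 75 (24.8%, background 24.2%) the breeds did not overlap. Of the tested hosts, 3 met the filter through 1 breed alone, of which 3 are among the 41 and the 75, and 0 called. The median log2 fold change was 0.01 over hosts and -0.04 over all protein-coding genes. Without Meishan replicate 3, 7 hosts were called, and without Meishan replicate 2, 2. Without any 1 Large White sample, 0 hosts were called. These counts with a sample left out also have no background here.

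ENSSSCG00000000047 had the most negative log2 fold change of the called hosts on the log2(RPKM + 1) scale, while with a pseudocount of 0.1 it was at -3.87 and ENSSSCG00000002686 at -4.47. Its RPKM was 0.240, 0.566 and 0.809 in Meishan against 7.58, 11.4 and 7.20 in Large White, which gave a log2 fold change of -2.65 ± 0.23 (SE; limma adjusted p = 0.00719). It holds 3 same-strand lncRNAs, of which 1 passed the filter. TCONS_00567286, with 2 exons that span chr5:3759847-3965365 (minus strand), was at 1.10, 2.08 and 0.953 RPKM in Meishan and 0.529, 0.0414 and 0.540 RPKM in Large White, from 26, 50 and 24 reads and 12, 1 and 13 reads. All Meishan samples of the lncRNA lay above all Large White samples, the reverse of the host. By itself the lncRNA did not pass (log2 fold change 0.79 ± 0.26 SE, limma adjusted p = 0.222).

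The difference between lncRNA and host at this locus was tested as a ratio. The log2 ratio of TCONS_00567286 to ENSSSCG00000000047 was 0.76, 0.98 and 0.11 in Meishan against -2.49, -3.57 and -2.41 in Large White. It was thus higher in every Meishan sample, by 3.44 ± 0.39 (SE; limma adjusted p = 0.0198 over 515 pairs of all lncRNA classes). This was the 1 called among the 138 intronic pairs (background 0.388% of pairs of all classes). At an unadjusted p under 0.05 there were 22 intronic pairs (15.9%, background 11.7%). Among the 138 are pairs whose lncRNA met the filter through 1 breed alone and so had to differ, such as those of TCONS_00128084 and TCONS_00607828. They were not taken out of this count. The background holds the intronic pairs themselves and pairs of lncRNAs on the tissue-specific list. Without Meishan replicate 1 or 2, or Large White replicate 1 or 3, no intronic pair was called. The other lncRNAs of this host held few reads: TCONS_00567292 had 0, 4 and 7 reads in Meishan against 2, 12 and 0 in Large White, and TCONS_00567301 was listed at 0 throughout.

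The remaining called hosts held lncRNAs at or near 0. ENSSSCG00000024791 was at 59.0, 50.9 and 31.5 RPKM in Meishan and 180.1, 177 and 132 RPKM in Large White (log2 fold change -1.80 ± 0.28 SE, limma adjusted p = 0.0438). Its opposite-strand lncRNAs were TCONS_00406377, listed at 0 in all samples, and TCONS_00406381, with 4 reads in Meishan replicate 1 and none elsewhere. ENSSSCG00000002686 was at 0, 0.819 and 0 RPKM in Meishan and 4.39, 3.63 and 5.90 RPKM in Large White (log2 fold change -2.19 ± 0.29 SE, limma adjusted p = 0.0251). TCONS_00786797, opposite to it, had no reads in Meishan against 3, 8 and 0 reads in Large White.

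Next to TCONS_00552319, the lncRNAs with the most negative log2 fold changes had tested hosts at a log2 fold change between 0.03 and 0.35. TCONS_00128084 lies within FARP1, a guanine nucleotide exchange factor, and opposite to STK24, a Ste20-like kinase, at chr11:74650279-74713239. It was at 0, 0.209 and 0.299 RPKM in Meishan and 1.55, 2.39 and 5.53 RPKM in Large White, from 0, 2 and 3 reads and 14, 23 and 53 reads. It passed the filter through Large White alone, so its log2 fold change of -1.72 is given as a description. STK24 was at 12.6 to 14.7 RPKM over all samples. FARP1 was at 8.06, 9.18 and 8.64 RPKM in Meishan and 6.15, 6.43 and 7.16 RPKM in Large White.

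TCONS_00616610, a 223-nt transcript opposite to the mannosyltransferase gene DPY19L3, was at 0.245, 0.603 and 0.460 RPKM in Meishan and 5.22, 1.80 and 2.16 RPKM in Large White. DPY19L3 was at 6.23 to 8.49 RPKM in all samples. The lncRNA had a log2 fold change of -1.41 ± 0.32 (SE; limma adjusted p = 0.104). TCONS_00403107 had 1, 1 and 0 reads in Meishan against 31, 44 and 34 in Large White, an RPKM of 0.0269, 0.0265 and 0 against 0.868, 1.16 and 0.898. It too passed the filter through Large White alone. Its log2 fold change of -0.95 is a description on the log2(RPKM + 1) scale, which understates low features. Its opposite-strand host ENSSSCG00000027783 was listed at 0 in 4 samples and reached 0.363 RPKM.

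The most positive log2 fold changes were found for 5 lncRNAs, none of them called. ENSSSCG00000014442 holds TCONS_00428714 on its opposite strand at chr2:157937463-157938526 and TCONS_00455803 on its own strand at chr2:157952151-157953524. TCONS_00428714 was at 5.81, 9.24 and 2.72 RPKM in Meishan and 1.23, 0.621 and 2.72 RPKM in Large White (log2 fold change 1.43 ± 0.42 SE, limma adjusted p = 0.182). TCONS_00455803 was at 10.1, 9.33 and 2.39 RPKM in Meishan and 2.54, 1.69 and 2.20 RPKM in Large White (log2 fold change 1.22 ± 0.43 SE, limma adjusted p = 0.239). In both, Meishan replicate 3 lay at the level of Large White, and without that sample both were called, with log2 fold changes of 1.81 and 1.78. Their host was at 27.8, 29.9 and 18.0 RPKM in Meishan and 19.6, 19.5 and 22.7 RPKM in Large White.

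For TCONS_00163214 and TCONS_00676562 all Meishan samples lay above all Large White samples. TCONS_00163214 was at 1.93, 4.86 and 3.05 RPKM in Meishan and 0.250, 0.353 and 1.18 RPKM in Large White (log2 fold change 1.41 ± 0.32 SE, limma adjusted p = 0.107). Its same-strand host ENSSSCG00000017987 was at 6.92 to 13.4 RPKM. TCONS_00676562, within GSTA4, a glutathione transferase that acts on lipid aldehydes, was at 3.33, 10.04 and 5.73 RPKM in Meishan and 1.92, 2.20 and 1.94 RPKM in Large White (log2 fold change 1.18 ± 0.32 SE, limma adjusted p = 0.151). GSTA4 was at 32.0 to 67.8 RPKM with the breeds overlapping.

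The lncRNA TCONS_00554052 lies at chr5:35953356-35955925 (plus strand) within MDM2, the ubiquitin ligase that holds p53 in check, and opposite to ENSSSCG00000027797. It was at 0.954, 2.81 and 7.15 RPKM in Meishan and 1.06, 0.745 and 0.499 RPKM in Large White. ENSSSCG00000027797 was at 0.701, 8.34 and 9.13 RPKM in Meishan and 2.19, 0.685 and 1.99 RPKM in Large White. MDM2 was at 9.41 to 14.7 RPKM. Meishan replicates 2 and 3 were high and Meishan replicate 1 low for the lncRNA and its opposite-strand host, not for MDM2. The breeds overlapped for the lncRNA, and its log2 fold change of 1.17 ± 0.47 (SE) did not pass (limma adjusted p = 0.283).

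Across the 138 pairs, the breed log2 fold changes of lncRNA and host had a Pearson r of 0.258 and a Spearman rho of 0.200. Both partners had the same sign in 75 pairs (54.3%). The values were r = 0.261 and rho = 0.268 over 101 opposite-strand pairs and r = 0.261 and rho = 0.0764 over 37 same-strand pairs. For antisense lncRNAs and the genes they overlap r was 0.734 (149 pairs), and for lncRNAs near gene ends it was 0.312 (150 pairs). All pairs share the same 6 libraries, and pairs at one locus share a gene, so these are descriptions and not tests.

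**Figure D4:**
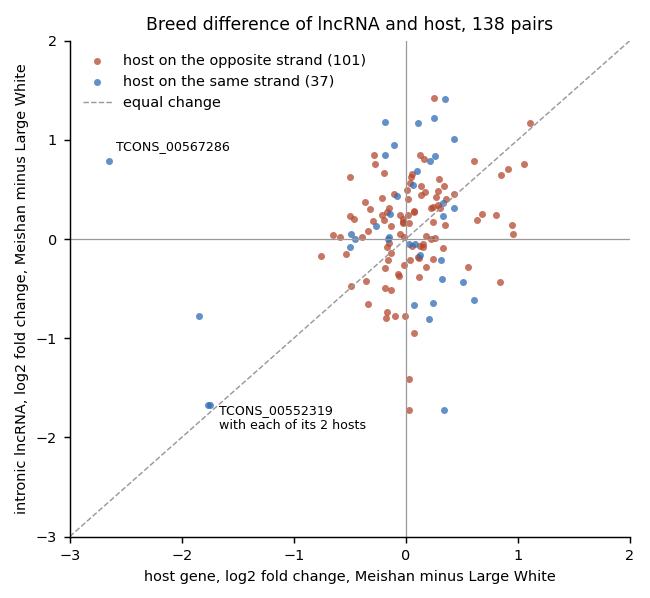
Breed difference, as log2 fold change on the log2(RPKM + 1) scale (Meishan minus Large White), of the intronic lncRNA (vertical) against that of its host (horizontal), for 138 pairs. Red points have hosts on the opposite strand and blue points on the same strand. TCONS_00552319 lies near the dashed line of equal change with each of its hosts, and TCONS_00567286 lies at 0.79 beside a host at -2.65.

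Variation inside a breed was followed in the same pairs, with each sample set against the mean of the other 2 samples of its breed. For each feature the deviations of a breed's samples cancel out, so they are not independent of each other. Those of Meishan replicates 1 and 2 are set against a mean that holds replicate 3 and in part mirror it. In Meishan replicate 3, the sample that stood apart, the deviations of lncRNA and host had a Pearson r of 0.505 and a Spearman rho of 0.408 over the 138 pairs. In the other samples r was 0.252 and 0.306 (Meishan replicates 1 and 2) and 0.195, 0.0477 and 0.0328 (Large White replicates 1 to 3). In Meishan replicate 3 the lncRNA deviated at least 2-fold in 21 pairs, and the host deviated in the same direction, by any amount, in 18 of them. At least 2-fold off in that sample were 15% of the tested intronic lncRNAs and 11.98% of all features. In Meishan replicates 1 and 2 the shares were 11.4% and 15%, against 5.53% and 4.74% of all features. In Large White replicates 1 to 3 they were 5.71%, 7.86% and 12.1%, against 1.03%, 2.06% and 2.13%. Pairs of the other classes also deviated together in Meishan replicate 3. For antisense lncRNAs r was 0.824 (0.504 to 0.743 in the other samples), and for lncRNAs near gene ends 0.476 (at most 0.230 in the others). The counts for intronic pairs were 5 of 18 and 16 of 23 in Meishan replicates 1 and 2, and 5 of 8, 6 of 11 and 10 of 17 in Large White replicates 1 to 3.

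**Figure D5:**
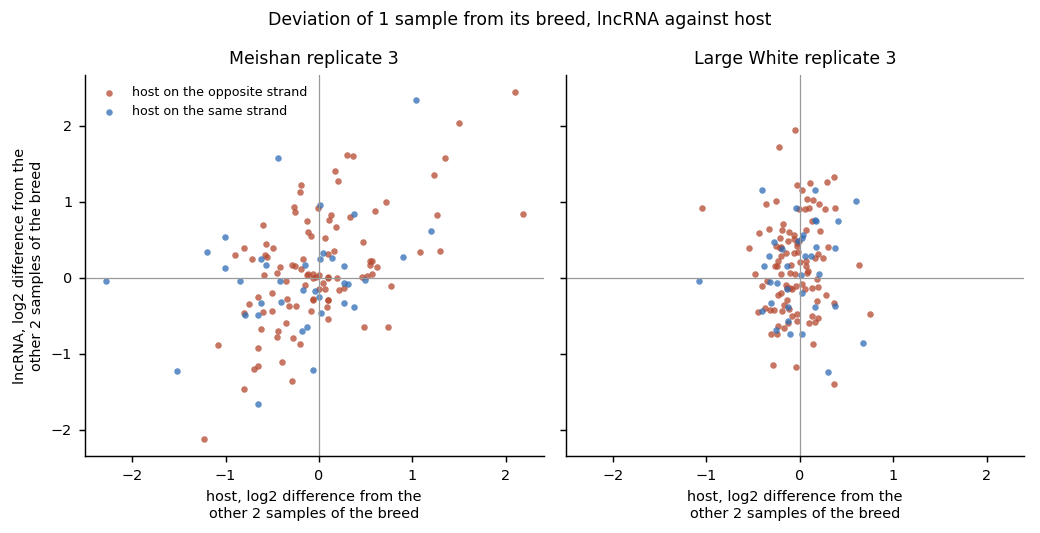
Log2 difference of 1 sample from the mean of the other 2 samples of its breed, lncRNA (vertical) against host (horizontal), for 138 pairs in Meishan replicate 3 (left) and Large White replicate 3 (right). Red points have hosts on the opposite strand and blue points on the same strand. Hosts spread more widely at left, where r is 0.505, than at right, where it is 0.0328.

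The lncRNAs that deviated most in Meishan replicate 3 show this pair by pair. TCONS_00625817, opposite to GREB1L, a gene needed for kidney development, was at 8.22 RPKM in Meishan replicate 3 against 0.918 and 0.502 RPKM in the other Meishan samples and 0.0997 to 2.40 RPKM in Large White. GREB1L was at 20.6 RPKM there against 2.77 to 4.66 RPKM in the other 5 samples. TCONS_00773952, within the laminin gene LAMB3, was at 5.80 RPKM against 0 to 0.836 RPKM elsewhere, and LAMB3 at 2.98 RPKM against 0.862 to 1.24 RPKM. In both pairs lncRNA and host were high in the same library, an observation without a replicate.

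TCONS_00603112, opposite to CELF4, an RNA-binding splicing regulator, moved the other way. It was at 0.145 RPKM in Meishan replicate 3 against 3.76 and 4.20 RPKM in the other Meishan samples and 0.352 to 2.09 RPKM in Large White, and CELF4 was at 1.13 RPKM against 2.48 to 4.57 RPKM. TCONS_00294086 was listed at 0 in Meishan replicates 1 and 2 and at 3.08 RPKM in replicate 3, beside 1.46, 1.95 and 2.99 RPKM in Large White. Its opposite-strand host ENSSSCG00000015802 was at 8.68 RPKM in that sample and at 2.20 to 4.07 RPKM in the others. Together with TCONS_00455803, all 5 lncRNAs chosen for their deviation in Meishan replicate 3 had a host that deviated in the same direction.

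The 4 hosts with the most intronic lncRNAs had few reads on them. NR2F2, a nuclear receptor of stromal cells, has 7 on its opposite strand, between chr7:88971412 and 89011416. NR2F2 was at 9.85, 9.54 and 14.2 RPKM in Meishan and 8.40, 6.74 and 9.90 RPKM in Large White. Its 6 lncRNAs without a base of their own were listed at 0 in all samples, and TCONS_00649699 had 0, 1 and 1 reads in Meishan against 0, 0 and 5 in Large White. ENSSSCG00000012530, on chromosome X, also has 7. It was at 29.4, 25.9 and 17.6 RPKM in Meishan and 40.4, 46.7 and 31.5 RPKM in Large White (log2 fold change -0.69 ± 0.24 SE, limma adjusted p = 0.237). Its 6 same-strand lncRNAs did not exceed 0.121 RPKM in any sample. TCONS_00869739, on its opposite strand, had 8, 4 and 9 reads in Meishan and was listed at 0 in Large White, but reached 0.5 RPKM in only 2 samples and was not tested. The hosts ENSSSCG00000010487 and ENSSSCG00000010488, with 5 each, of which they share 3, did not exceed 0.177 RPKM, and no lncRNA of theirs exceeded 5 reads.

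Hosts that belong to cell type or pathway lists were few. Besides NR2F2, SMAD2, which transmits TGF-beta and activin signals, was at 36.8, 27.3 and 94.3 RPKM in Meishan and 29.98, 31.7 and 26.0 RPKM in Large White, while its same-strand lncRNA TCONS_00060073 was listed at 0 throughout. CDH2, or N-cadherin, was at 6.50, 6.06 and 16.7 RPKM in Meishan and 5.88, 7.55 and 6.05 RPKM in Large White. Its opposite-strand lncRNA TCONS_00601746 had 3, 0 and 51 reads in Meishan against 8, 8 and 5 in Large White, so Meishan replicate 3 was the highest sample for both. PLXNA2, a semaphorin receptor, was at 0.680 to 1.96 RPKM and its lncRNA TCONS_00748498 at 0 throughout.

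PAX2 and SLC12A1, genes of the kidney tubule and its precursors, were both low and did not pass the filter. PAX2 reached 0.0453 RPKM in 1 sample and was listed at 0 in 5, with its opposite-strand lncRNA TCONS_00280072 at 0 throughout. SLC12A1 was at 0.220 to 0.688 RPKM. Of its 3 opposite-strand lncRNAs, TCONS_00019142 had 6, 1 and 15 reads in Meishan and was listed at 0 in Large White, and the others were listed at 0 in every sample.

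No gene of the pathway lists was called, beside 0.758% of all features, of which 15.9% had an unadjusted p under 0.05. Over WNT, BMP and TGF-beta signaling, 23 of 32 genes were tested, 3 had an unadjusted p under 0.05, and the median log2 fold change was 0.15. Over axon guidance and cell adhesion the numbers were 16 of 27 and 4, with a median of 0.25, and over meiosis and retinoic acid 11 of 23 and 2, with a median of -0.09, beside a median of -0.03 over all features. Among the cell type lists, 1 gene each had an unadjusted p under 0.05 for germ cells (6 tested), supporting cells (6), endothelium (3) and blood (5), and 0 for stroma (7), mesonephros (1), testis supporting cells (1) and muscle (2), with 0 called in each.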

How the data were processed

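RNA of 6 fetal ovaries, 3 Meishan and 3 Large White at 49 days post coitus, was measured by strand-specific sequencing after ribosomal RNA depletion. The authors deposited RPKM values per sample for lncRNAs and protein-coding genes. The submitters' processing notes name TopHat2 2.1.0 and HTSeq. The study's methods name the pig genome Sscrofa10.2 and strand-specific counting at a mapping quality of at least 1, with RPKM on read pairs. The counting mode for reads that fit several features is not given in the sources used here. The lncRNA models were assembled from other libraries, of pooled tissues and of postnatal organs, ovary among them.

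From these files, intronic lncRNAs, their hosts, strands, exons and classes were taken from the readable part of the study's annotation. The members and gene lists were chosen with earlier results of these data known. RPKM values were tested as log2(RPKM + 1), a log2 scale that understates changes of low features, with limma 3.58.1 in R 4.3.3 (trended empirical Bayes) on the 14902 features that reached 0.5 RPKM in 3 or more samples. The two-sided p-values of all these features were adjusted together after Benjamini and Hochberg. A call needed a fold change of at least 2 and an adjusted p under 0.05. The log2 ratio of lncRNA to host was tested in the same way over 515 pairs of all classes. The design has no covariates. The test was checked on simulated data, with changes larger than the call limit and without a sample that stood apart. The changed features there lay above the median level of the tested intronic lncRNAs. That check does not show how the test does on these lncRNAs. Tables and figures were made with Python 3.11.15 (matplotlib 3.10.9, pandas 2.3.3, scipy 1.17.1, numpy 2.4.6).

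RPKM steps of 1 read gave the depth of each sample: in every sample all lncRNAs used for this came out as whole reads within 0.0001, and 92.1% of 1386 feature lengths found this way equalled the annotation. Read counts in the text are these recovered reads.

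The lncRNAs named are the called ones, the 8 with the highest mean, the 5 most negative and 5 most positive log2 fold changes, called hosts and ratios, hosts with at least 5 lncRNAs, pairs with the lncRNA above the host in all samples, hosts in the gene lists (germ cells, supporting cells, stroma, mesonephros, testis supporting cells, endothelium, blood, muscle, WNT with BMP and TGF-beta, axon guidance, and meiosis with retinoic acid), and the 5 with the largest deviation of Meishan replicate 3. Alternatives were another pseudocount, other filters, quantile and upper quartile scaling, no trend, voom on recovered reads, a replicate block and leaving out each sample. No genome or sequence of the annotation's build was used here, so no sequence is shown.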

Additional observations from a re-analysis of the deposited data

How the results depend on the processing

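Of the intronic lncRNAs, 1 was called, and 0 were with a pseudocount of 0.1, with a minimum of 0.1 RPKM, without a filter or with a replicate block, with 34 (minimum of 0.1 RPKM), 27 (no filter) and 27 (block) still at an unadjusted p under 0.05. Leaving out 1 sample gave 0 to 4, where the 4 include TCONS_00294086, which then met the filter through Large White alone. The 4 called hosts became 2 with a pseudocount of 0.1, 0 without a filter (65 at an unadjusted p under 0.05) and 1 with the block, and 0 to 7 with 1 sample left out. The 1 called ratio became 0 with a pseudocount of 0.1 or the block, 2 with a minimum of 0.1 RPKM, without a filter, with quantile or with upper quartile scaling (in the last 2 settings the added pair is TCONS_00128084 with FARP1, whose lncRNA passed the filter through Large White alone), and 0 to 1 with 1 sample left out. The cause was not tested. Shares over all features in these other settings are not given here, so the counts have no background of their own. The mean number of lncRNAs detected per sample was 223.2 above 0 and 127.5 at 0.5 RPKM or more. The median log2 ratio of lncRNA to host was -2.05, -3.16 with a pseudocount of 0.1, and -2.11 to -1.90 with 1 sample left out. The correlation of the breed changes stayed between 0.192 and 0.309. No tested result reversed its sign in 222 fits with all samples or 162 with 1 left out, over 29 named results at an unadjusted p under 0.05. These 29 results were kept for that p in the same data, so a steady sign was largely fixed in advance and is no separate support. Of the 6 among them with an adjusted p under 0.05, 19 of 47 and 24 of 36 fits gave one no longer under it. Samples of both breeds that carry the same replicate number had correlations of -0.04, 0.12 and 0.15 between their deviations from the breed means, so the numbers were not taken as pairs and the block is given only here. The median log2 fold change of all features was -0.03, and 0.00 and 0.05 after quantile and upper quartile scaling. Tested intronic lncRNAs had a median of 13 to 20 reads per sample, and the smallest difference this depth can show was not tested.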

Other observations

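The loci that follow were chosen after their values were seen, and none passed the adjusted test. HS6ST2, F5, TCONS_00354692 and TCONS_00607828 passed the filter through 1 breed alone, so their differences are given as descriptions. HS6ST2, a heparan sulfate sulfotransferase, was at 2.14, 1.34 and 12.5 RPKM in Meishan and 0.236, 0.0493 and 0.115 RPKM in Large White (log2 fold change 2.03). All Meishan samples lay above all Large White samples, and replicate 3 was by far the highest. Both of its same-strand intronic lncRNAs also had their highest value in that sample, TCONS_00873842 at 2.20 RPKM and TCONS_00873861 at 1.26 RPKM, and neither exceeded 0.241 RPKM elsewhere. F5, coagulation factor V, was at 3.01, 7.05 and 0.936 RPKM in Meishan and 0.378, 0.269 and 0.395 RPKM in Large White (log2 fold change 1.56). Its opposite-strand lncRNA TCONS_00539399 was at 0.488, 0.660 and 0 RPKM in Meishan and 0.127, 0 and 0 RPKM in Large White, so Meishan replicate 2 was the highest sample for both.

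At PCYOX1L, lncRNA and host were both higher in every Meishan sample. PCYOX1L was at 23.0, 20.2 and 13.4 RPKM in Meishan and 10.8, 13.2 and 11.4 RPKM in Large White (log2 fold change 0.61 ± 0.22 SE, limma adjusted p = 0.246). TCONS_00455672, on its opposite strand, was at 2.51, 2.61 and 1.99 RPKM in Meishan and 1.01, 0.613 and 1.26 RPKM in Large White (log2 fold change 0.79 ± 0.20 SE, limma adjusted p = 0.137). At PTCD2, a mitochondrial RNA-binding protein gene, the signs were opposite. PTCD2 was at 5.36, 3.30 and 4.98 RPKM in Meishan and 7.12, 6.69 and 6.34 RPKM in Large White, while TCONS_00354692 on the other strand was at 0.542, 1.79 and 1.06 RPKM in Meishan and 0.410, 0.241 and 0.386 RPKM in Large White. PTCD2 had a log2 fold change of -0.50 ± 0.19 (SE; limma adjusted p = 0.269), and the lncRNA one of 0.62.

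TBC1D1, a Rab GTPase-activating protein gene, was at 41.0, 34.4 and 29.3 RPKM in Meishan and 16.2, 21.6 and 16.2 RPKM in Large White (log2 fold change 0.92 ± 0.20 SE, limma adjusted p = 0.0984). The breeds did not overlap. Its opposite-strand lncRNA TCONS_00682327 was at 3.45, 1.77 and 1.32 RPKM in Meishan and 0.652, 1.61 and 0.538 RPKM in Large White, with overlap through Large White replicate 2.

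At ENSSSCG00000003853, which has no symbol here, lncRNA and host were both lower in every Meishan sample. The host was at 36.5, 70.8 and 9.66 RPKM in Meishan and 116, 122 and 91.3 RPKM in Large White (log2 fold change -1.85 ± 0.61 SE, limma adjusted p = 0.219). TCONS_00607828, on its strand and opposite to ZYG11B, had 1, 4 and 2 reads in Meishan against 14, 16 and 19 in Large White (log2 fold change -0.78).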
